A study of Homo sapiens with 2 samples.

Results

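The genes examined were 9 transcription factors of epithelial cells: the grainyhead-like factors GRHL1, GRHL2 and GRHL3, the ETS factors ELF3, EHF, ELF5 and SPDEF, and the zinc finger repressors OVOL1 and OVOL2. They were chosen by name from the 19974 protein-coding genes in the RefSeq table, and every peak on their gene bodies and within 50 kb of either end was collected. This gave 107 of 64784 H3K27ac peaks and 198 of 139511 H3K4me1 peaks. The cells were C4-2B EnzR, a resistant derivative of the human prostate cancer line C4-2B, obtained by culture with enzalutamide, a drug used against prostate cancer, over 6 months or more. CUT&Tag, which tethers a transposase to antibody-bound chromatin and sequences the fragments it releases, was run on 100000 cells with 14 cycles of PCR. There was 1 library for H3K4me1 and 1 for H3K27ac, both from the resistant cells. No parental, replicate or background library was used here, so no value below is a response to the drug, no difference has a replicate check, and no test was made.

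H3K27ac marks active promoters and enhancers, and H3K4me1 marks enhancers and the flanks of promoters. Grainyhead factors bind the enhancers of cell junction genes and keep epithelia closed. ELF3, EHF, ELF5 and SPDEF are the epithelium-restricted ETS factors, SPDEF being the prostate-derived one, and OVOL1 and OVOL2 repress genes such as ZEB1 that would turn epithelial cells mesenchymal.

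The promoters of 5 members are shown because they differ in both base composition and marks. RefSeq promoter sequences (GRCh38.p14) existed for 8 starts of 6 members, GRHL1, GRHL3 (2 starts), ELF3, EHF (2 starts), ELF5 and SPDEF. Each sequence runs 5′ to 3′ on the gene's strand, from 250 bases before the start base through the first 20 transcribed bases. Capitals mark matches to the searched motifs, on either strand. GRHL1 (chr2:9951443-9951712, plus strand) had both marks over its start, as had ELF3 (chr1:202010337-202010606, plus strand) and SPDEF (chr6:34556310-34556579, minus strand). The second start of EHF (chr11:34632316-34632585, plus strand) lay under an H3K27ac peak. Neither mark lay within 1 kb of the ELF5 start (chr11:34511705-34511974, minus strand).
GRHL1: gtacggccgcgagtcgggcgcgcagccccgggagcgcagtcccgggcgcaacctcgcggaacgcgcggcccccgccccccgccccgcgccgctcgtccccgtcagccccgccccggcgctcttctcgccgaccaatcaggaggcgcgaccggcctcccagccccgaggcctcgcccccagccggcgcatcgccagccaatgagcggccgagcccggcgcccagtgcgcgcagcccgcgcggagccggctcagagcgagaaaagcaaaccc
ELF3: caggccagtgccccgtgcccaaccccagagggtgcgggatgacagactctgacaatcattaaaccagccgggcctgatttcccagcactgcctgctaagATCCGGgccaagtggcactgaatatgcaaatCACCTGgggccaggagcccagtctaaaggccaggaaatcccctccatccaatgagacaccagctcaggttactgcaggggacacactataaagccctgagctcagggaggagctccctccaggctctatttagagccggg
EHF, second start: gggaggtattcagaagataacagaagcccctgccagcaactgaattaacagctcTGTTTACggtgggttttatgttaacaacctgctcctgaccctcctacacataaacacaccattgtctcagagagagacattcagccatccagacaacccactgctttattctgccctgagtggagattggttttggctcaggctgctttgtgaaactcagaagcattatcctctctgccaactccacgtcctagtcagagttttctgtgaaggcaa
SPDEF: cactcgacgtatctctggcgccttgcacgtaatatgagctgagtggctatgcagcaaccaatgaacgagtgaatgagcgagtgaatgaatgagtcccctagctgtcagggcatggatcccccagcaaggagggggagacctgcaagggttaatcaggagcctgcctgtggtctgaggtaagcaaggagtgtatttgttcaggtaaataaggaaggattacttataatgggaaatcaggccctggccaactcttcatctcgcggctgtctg
ELF5: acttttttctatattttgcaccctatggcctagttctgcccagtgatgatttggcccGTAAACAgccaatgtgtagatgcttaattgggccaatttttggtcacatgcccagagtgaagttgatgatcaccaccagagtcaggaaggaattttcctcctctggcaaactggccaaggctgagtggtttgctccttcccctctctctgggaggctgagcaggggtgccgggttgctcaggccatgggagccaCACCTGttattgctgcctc

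The GRHL1 promoter was rich in CpG. Its 300 bases held 52 CpG dinucleotides, an observed to expected ratio of 1.13 given its C and G content, at the 97.8th percentile of 22132 promoters of protein-coding genes. The ELF3 promoter held 7 (ratio 0.269), the SPDEF promoter 8 (0.397), the second EHF promoter 3 (0.171) and the ELF5 promoter 2 (0.101). The first EHF promoter had a ratio of 0.410, and the 2 GRHL3 promoters 0.370 and 0.534. With all promoters divided into 3 equal groups by this ratio, 6 of the 8 fell in the lowest group. Few promoters of that kind carried marks in these cells: 22.8% had an H3K27ac peak within 1 kb and 27.7% an H3K4me1 peak, against 87.1% and 88.6% in the highest group. Of the 6 members' promoters in the lowest group, 4 had each mark, ELF3, SPDEF and both starts of EHF. The 2 without were ELF5 and the first start of GRHL3. The 6 promoters belong to 5 genes, and the 4 marked ones to 3.

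**Figure D1:**
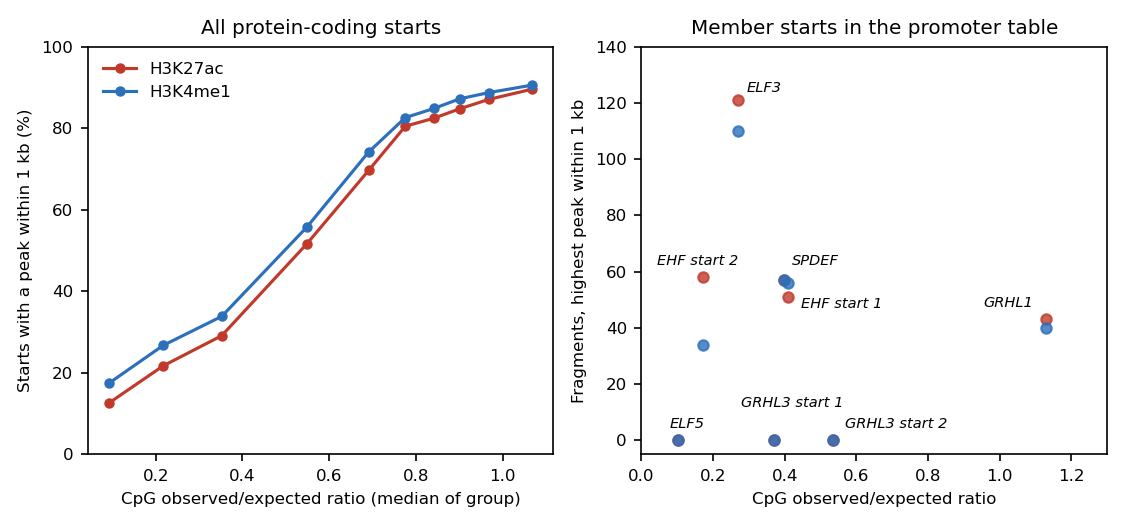
CpG content and marks at gene starts. Left, percent of starts with an H3K27ac (red) or H3K4me1 (blue) peak within 1 kb, in 10 equal groups of all protein-coding promoters ordered by the CpG observed/expected ratio of their 300 bases. Right, the same ratio of each member promoter against the fragments at the summit of the highest peak within 1 kb, 0 standing for no peak. ELF3 combines a ratio of 0.269 with 121 and 110 fragments, and GRHL1 a ratio of 1.13 with 43 and 40.

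A motif match is a description of the letters, not a bound site. The forkhead letters TGTTTAC occurred in 2.85% of all promoters and in 2 of the members' 8, beginning 196 bases before the second EHF start and 193 bases before the ELF5 start. The E-box CAGGTG, read by ZEB and SNAI repressors, occurred in 20.0% of promoters and in 3 of the 8. It began 120 bases before the ELF3 start, 1 base after the ELF5 start base, and at 2 places in the first GRHL3 promoter. The SPDEF-type letters CCGGAT occurred in 8.43% and, among members, in ELF3, beginning 151 bases before its start. No member promoter held the grainyhead letters AACNGGTT (1.66% of all promoters), the ETS letters CCGGAA (21.2%) or the OVOL letters CCGTTA (3.40%). No match in a member promoter overlapped another.

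Heights are given as the number of fragments piled up at a peak's summit, recovered from the deposited fold enrichment and p value, with exact Poisson 95% intervals. These intervals and the binomial ones below cover counting error only, since PCR duplicates may be included. The fold enrichment and significance of each peak are the authors' own. The total depth of the libraries is unknown from peak lists. The median peak held 13 fragments for H3K27ac (range 4 to 772) and 18 for H3K4me1 (4 to 480). A count in one library cannot be read against a count in the other as more or less of a mark, so ratios between the marks are set against the same ratio elsewhere. The labelled cell type was checked first: the luminal prostate markers KLK3, KLK2, HOXB13, FOXA1 and TMPRSS2 had both marks at their starts, TMPRSS2 with 193 H3K27ac fragments. None of 3 basal, 4 fibroblast and 2 endothelial markers had H3K27ac there. Of the neuroendocrine markers SYP had 38 H3K27ac fragments, and of the blood markers CD3E had 14 and PTPRC had no peak.

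GRHL1, GRHL2, ELF3, EHF, SPDEF and OVOL1 had an H3K27ac peak within 1 kb of a start, 6 of 9 where 62.6% of all protein-coding genes had one. H3K4me1 was there in 7 of 9, the same genes and OVOL2, against 65.4% of all genes. Both shares are near the background, so the marks' presence does not set the members apart. GRHL3 and ELF5 had neither mark within 1 kb of the starts used, although H3K4me1 lay within 2.5 kb of the ELF5 start. For GRHL2, OVOL1 and OVOL2 the tables used gave no strand, and both ends of the gene were taken as possible starts. Among all genes with the mark the median at the start was 71 fragments for H3K27ac and 35 for H3K4me1. GRHL2 (149, interval 126 to 175) and ELF3 (121, 100 to 145) were above the first. The GRHL2 peak counts by its edge, as its summit was 1.58 kb inside the gene; the GRHL2 peak with its summit at the gene's end had 84 (67.0 to 104), an interval that included 71. EHF (58, 44.0 to 75.0) and SPDEF (57, 43.2 to 73.9) had intervals that included it, while GRHL1 (43, 31.1 to 57.9) and OVOL1 (31, 21.1 to 44.0) were below. For H3K4me1 the order was ELF3 (110, 90.4 to 133), OVOL1 (88, 70.6 to 108), GRHL2 and SPDEF (both 57, 43.2 to 73.9), EHF (56, 42.3 to 72.7), GRHL1 (40, 28.6 to 54.5) and OVOL2 (7, 2.81 to 14.4). The intervals of neighbours in this order overlapped, except those of GRHL1 and OVOL2.

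**Figure D2:**
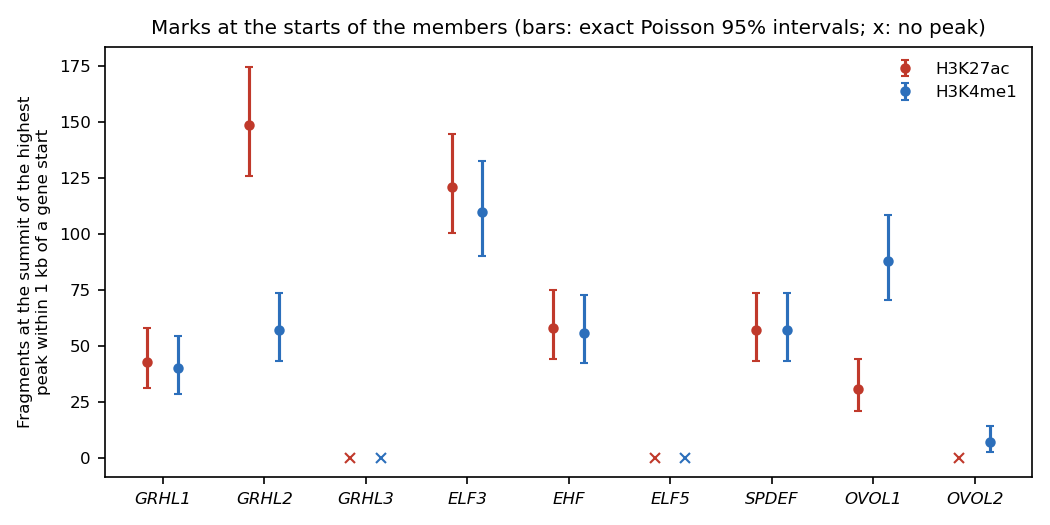
Fragments at the summit of the highest H3K27ac (red) and H3K4me1 (blue) peak whose nearer edge lies within 1 kb of a start of each member, with exact Poisson 95% intervals; crosses mark no peak. For GRHL2, OVOL1 and OVOL2 either end of the gene counts as a start. GRHL2 (149) and ELF3 (121) carry the highest H3K27ac, the GRHL2 summit lying 1.58 kb inside the gene. GRHL3 and ELF5 carry neither mark within 1 kb of the starts used.

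Peaks around most of the members, but not all, were more numerous than around the median gene. The members' windows held a median of 12 H3K27ac peaks (3 to 27) and 17 H3K4me1 peaks (10 to 55), where the medians of all genes were 6 and 11. For H3K27ac 6 members and for H3K4me1 7 members lay above those medians. Longer genes have wider windows, and GRHL2, the longest member at 188762 bp, had the most peaks. Per 100 kb of window OVOL1 (12.7), ELF3 (11.3), SPDEF (11.0) and EHF (10.5) held more H3K27ac peaks than GRHL2 (9.35). ELF5 (2.22), OVOL2 (3.70) and GRHL3 (4.13) held the fewest. No value per 100 kb over all genes is given here, so the counts above are not adjusted for window width. Of the 107 H3K27ac peaks 11 lay at member starts, 40 elsewhere in the members' bodies, 10 at the ends of other protein-coding genes and 46 in the rest of the flanks. For the 198 H3K4me1 peaks these numbers were 12, 91, 13 and 82.

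**Figure D3:**
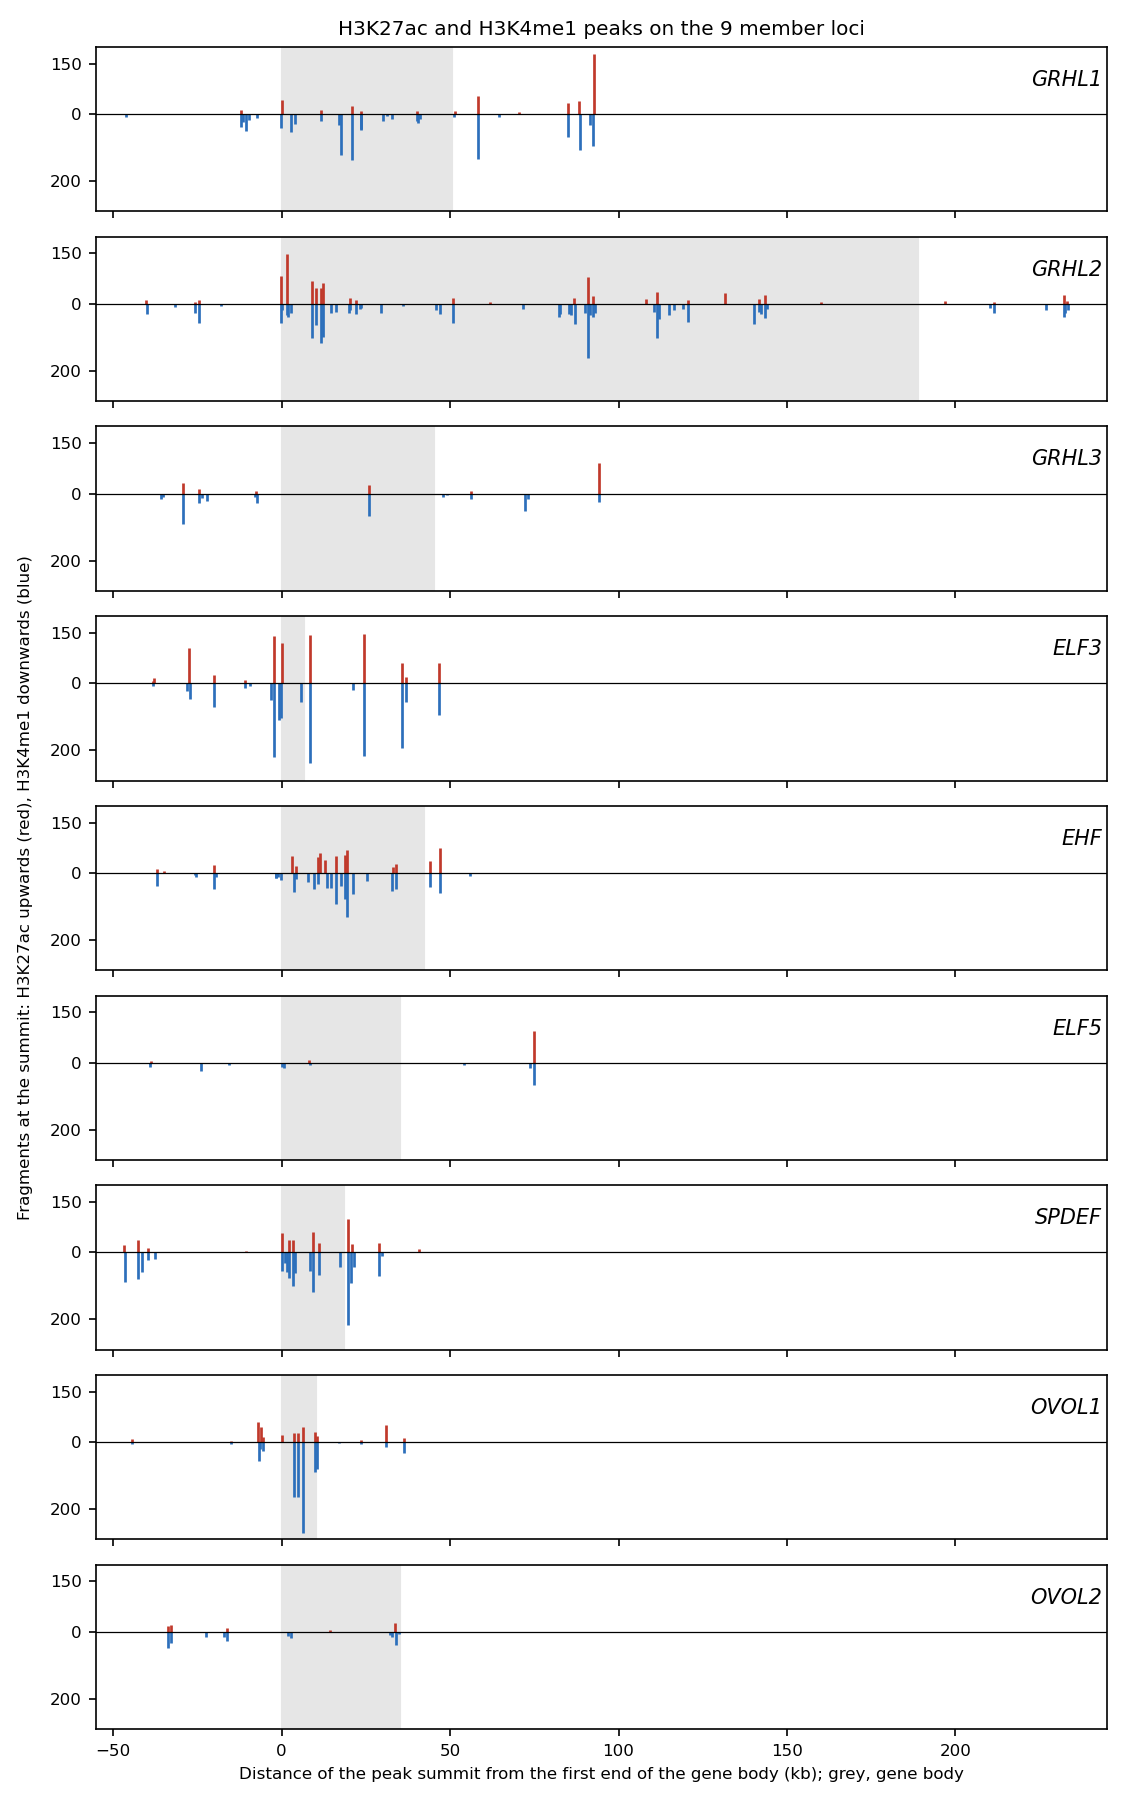
Peaks on the 9 loci. Each line is 1 peak, placed by the distance in kb of its summit from the first end of the gene body, with fragments at the summit upwards for H3K27ac (red) and downwards for H3K4me1 (blue); gene bodies are grey. ELF5 and SPDEF are turned to read 5′ to 3′, and GRHL2, OVOL1 and OVOL2 are drawn from their lower coordinate. ELF3 shows tall peaks on both sides of a short gene, GRHL2 peaks along most of a long one, and ELF5 1 tall pair far from the gene, at CAT.

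Among the grainyhead genes, GRHL2 on chromosome 8 (101492439 to 101681200) was the most densely marked, and its counts of 27 H3K27ac and 55 H3K4me1 peaks stood at the 98.9th and 99.4th percentiles of all genes. At its lower-coordinate end lay H3K27ac peaks of 84 and 149 fragments, with summits 0.117 kb before and 1.58 kb inside that end. H3K4me1 there reached 57. The peaks of 84 and 57 also overlapped GRHL2-DT, a long noncoding RNA gene, and cannot be assigned to GRHL2 alone. No peak of either mark lay within 1 kb of the other end. Some 9 kb inside the gene began a run of paired peaks, the first of 68 H3K27ac and 103 H3K4me1 fragments. The highest H3K27ac peak away from gene ends, 81 fragments (64.3 to 101), coincided with the highest H3K4me1 peak of the locus, 161 fragments, at 101583353 to 101583649. Their summits were 91.1 kb inside the gene. Of the 27 H3K27ac peaks 20 lay in the gene body.

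GRHL1, on chromosome 2 from 9951693 to 10002277, had moderate marks at its start, 43 and 40 fragments, within peaks of both marks that covered the start base. The tallest H3K27ac peak of its window, 178 fragments, lay at the start of KLF11, 41.3 kb away, and not at GRHL1. Inside GRHL1, 21.0 kb from the start, an H3K4me1 peak of 138 fragments, the highest in the window, shared its summit with an H3K27ac peak of 25 (16.2 to 36.9). Beyond the gene, 7.40 kb from its end, the pair was 53 and 135. GRHL3, on chromosome 1 from 24319357 to 24364482, acts in epidermal barrier formation and wound closure. It had no peak at either RefSeq start. Its body held 1 peak of each mark, a pair at 24345044 to 24345765 of 26 H3K27ac (17.0 to 38.1) and 68 H3K4me1 fragments. Another pair, 32 (21.9 to 45.2) and 90 (72.4 to 111) fragments, lay 29.1 kb upstream of the gene. For each mark its interval overlapped that of the pair in the body, so no order between them can be read. The highest H3K27ac peak of the window, 90 fragments, lay over an end of NIPAL3 and inside STPG1.

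Of the ETS genes ELF3, on chromosome 1 from 202010587 to 202017183, had the tallest peaks. The gene is 6597 bp long, and besides its start it was flanked by pairs at both sides. The upstream pair, 2.13 kb before the gene, had 142 H3K27ac (120 to 167) and 220 H3K4me1 fragments. This pair lay inside ELF3-AS1, a long noncoding RNA gene that the peaks at the ELF3 start also overlapped. None of these peaks can be assigned to ELF3 alone. The downstream pair, 0.591 kb past the gene's end, had 144 (121 to 170) and 237, the highest H3K4me1 of the locus. A more distant pair, 17.4 kb past the end, had 147 (124 to 173) and 216, and the highest H3K27ac of the locus. These 3 H3K27ac intervals overlapped, and overlapped that of the start, so no order among them can be read. Pairs of 60 and 192 and of 60 and 95 fragments followed 29.0 and 39.7 kb past the gene. A separate H3K27ac peak of 105 fragments lay at RNPEP, the neighbouring gene.

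EHF and ELF5 are neighbours on chromosome 11, and their loci differed. EHF, from 34621093 to 34663288, had H3K27ac over both of its RefSeq starts, 51 fragments (38.0 to 67.1) at the first and 58 at the second, whose intervals overlapped. H3K4me1 peaks lay within 1 kb of both, 56 and 34 fragments, without covering either start base. The first 16427 bp from the first start held 8 H3K27ac peaks, ending with 67 fragments (51.9 to 85.1) of H3K27ac and 131 of H3K4me1, the highest H3K4me1 of the locus, at one shared summit. The highest H3K27ac, 74 fragments (58.1 to 92.9), lay 4.75 kb past the gene. No other protein-coding gene lay in the EHF window. ELF5, an ETS factor of mammary and other glandular epithelium, runs from 34478791 to 34513794. Its body held 1 H3K27ac peak, of 7 fragments (2.81 to 14.4), and 3 H3K4me1 peaks, of 7, 15 and 12. The H3K4me1 peaks of 15 and 12 had summits 1.32 and 2.07 kb upstream of the ELF5 start used. Both lay within 1 kb of the gene's annotated upstream end. The largest H3K4me1 peak away from other genes had 26 fragments, 23.8 kb upstream. The tallest peaks of the ELF5 window, 95 H3K27ac and 66 H3K4me1, lay at CAT, the catalase gene.

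SPDEF, on chromosome 6 from 34537802 to 34556329, had 57 fragments of each mark at its start, where the H3K27ac peak was 1849 bp wide. Its tallest pair lay past the other end of the gene, 0.819 kb away and between SPDEF and PACSIN1, with 99 H3K27ac (80.5 to 121) and 215 H3K4me1 fragments. Inside the gene, 9.39 kb from the start, a pair of 60 and 117 held the highest H3K27ac away from gene ends. All 21 H3K4me1 peaks of the SPDEF window had at least 11 fragments.

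OVOL1 had the highest H3K4me1 peak of any member with rather low H3K27ac. The gene, on chromosome 11 from 65787063 to 65797214, is overlapped by the RefSeq models OVOL1-AS1 and LOC124902693, so peaks inside it cannot be assigned to OVOL1 alone. At the lower-coordinate end H3K27ac had 22 fragments (13.8 to 33.3) and no H3K4me1 peak lay within 1 kb. At the other end the values were 31 and 88, so the 88 given for OVOL1 above is at its start only if that end is the start. Inside the gene the pairs were 26 and 165, 26 and 163, and 45 (32.8 to 60.2) and 272 (241 to 306), the last at 65793197 to 65793467. The ratio of H3K4me1 to H3K27ac fragments reached 6.35 in the first of these, where the median was 1.73 over all 47665 overlapping pairs and 0.950 over the 23641 with at least 20 H3K27ac fragments. Both medians include pairs at gene starts, and over all pairs elsewhere the median was 2.24. The highest H3K27ac away from gene ends was a peak of 50 fragments 20.8 kb past the gene, which had 14 of H3K4me1, and the highest of the window, 59, lay at AP5B1. OVOL2, on chromosome 20 from 18024152 to 18059188, had 5 H3K27ac peaks, the highest of 25 fragments (16.2 to 36.9). It lay just inside the higher-coordinate end, with its summit 1.25 kb from it and its edge beyond the 1 kb limit used for starts, and 40 H3K4me1 fragments lay under it. The highest H3K4me1 peak of the window, 49, lay at MGME1.

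The marks overlapped more often on the member loci than over the genome, in step with the height of the peaks. Of the 107 H3K27ac peaks 91 overlapped an H3K4me1 peak, 85.0% (Clopper-Pearson 95% interval 76.9 to 91.2) against 73.6% of all H3K27ac peaks. Of the 198 H3K4me1 peaks 100 overlapped H3K27ac, 50.5% (43.3 to 57.7) against 38.1%. The member peaks were also higher, with medians of 25 against 13 fragments for H3K27ac and 30 against 18 for H3K4me1. Among H3K27ac peaks of 10 to 24 fragments 84.4% of member peaks and 86.4% of all peaks overlapped, from 25 to 49 fragments 92.9% and 93.3%, and from 50 upwards 92.6% and 96.9%. Under 10 fragments the shares were 65% (13 of 20, 40.8 to 84.6) and 45.5%. For H3K4me1 the 4 shares from the lowest class up were 25%, 26.8%, 52.5% and 78.7%, against 11.8%, 28.5%, 55.5% and 82.4%. In each class the share of all peaks lay inside the members' interval. Peaks of 1 locus share its surroundings and are not replicates.

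Where both marks overlapped, the balance between them differed between starts and other sites. Where several H3K4me1 peaks overlapped an H3K27ac peak of a member, the pair used the highest, which need not have the nearest summit. Member pairs were placed at starts by their H3K27ac peak. The median ratio of H3K4me1 to H3K27ac fragments was 0.899 over the 8 pairs at member starts and 2.09 over the other 83, where all pairs had 0.619 at gene starts and 2.24 elsewhere. The other 83 included pairs at the ends of other protein-coding genes, whereas the 2.24 left out pairs at gene starts. Among the 8, the OVOL1 pairs (2.84 and 4.44) are at a start only if the higher-coordinate end of OVOL1 is its start. The GRHL2 pair of 0.262 had its H3K27ac summit 1.58 kb inside the gene, and its H3K4me1 summit 440 bp from that. In the SPDEF start pair the H3K4me1 summit, of 60 fragments, lay 1544 bp from the H3K27ac summit. An H3K4me1 peak of 57 fragments at the SPDEF start also overlapped but was not used. The median H3K27ac height was 52 fragments in the start pairs and 25 in the others, and the median H3K4me1 height 58.5 and 54. Over all 91 member pairs the median was 2.00 and over all pairs 1.73. Among pairs of at least 20 H3K27ac fragments these medians were 1.77 (57 member pairs) and 0.950 (23641 pairs). Pairs at gene starts, where the ratio was lower, were 13692 of all 47665 pairs, and pairs at member starts 8 of the 91 member pairs. The pooled medians therefore cover unlike mixes of sites. GRHL2 had the lowest single ratio, 0.262, at its peak of 149 fragments. By gene the medians ran from 1.00 for ELF5 (3 pairs) and 1.55 for ELF3 to 2.55 for GRHL1. The summits of the marks lay a median of 15 bp apart in member pairs and 33 bp in all pairs. They lay within 20 bp in 49 of 91 member pairs (53.8%) and in 39.0% of all pairs. At 20 or more H3K27ac fragments the shares were 61.4% and 43.3%. ELF3 had 8 of its 11 pairs within 20 bp and GRHL2 14 of 21.

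Fold enrichment ranked these peaks lower than fragments did. By fragments the median member peak stood at the 67.6th percentile of all H3K27ac peaks and the 71.6th of H3K4me1 peaks, and by the authors' fold at the 52.2nd and 38.9th. The fold divides by a local background, whose median was 2.75 fragments at member H3K27ac peaks against 1.05 at all peaks, and 3.81 against 1.31 for H3K4me1. The OVOL1 peak of 272 H3K4me1 fragments stood over a background of 28.7 and had a fold of 9.20. The ELF3 H3K4me1 peak of 216 stood over 5.53 and had a fold of 33.3. Other tall ELF3 H3K4me1 peaks, of 237 and 220 fragments, stood over 17.9 and 14.8 and had folds of 12.6 and 14.0. The SPDEF H3K4me1 peak of 215 had a background of 17.2 and a fold of 11.9.

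**Figure D4:**
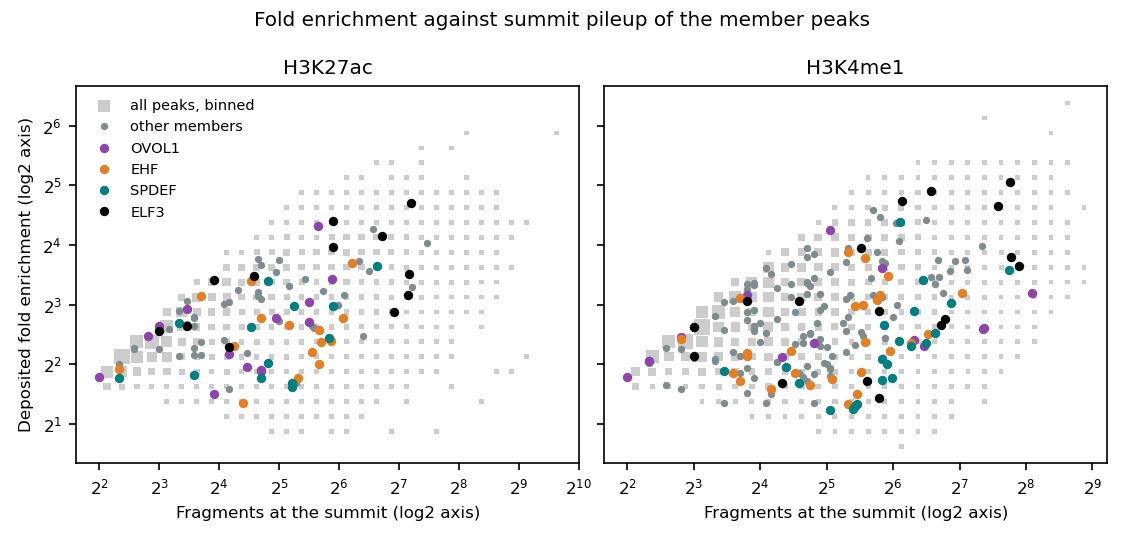
Fragments at the summit against the authors' fold enrichment, both on log2 axes, for all peaks (grey squares, larger where more peaks fall) and for the member peaks (points; EHF, ELF3, OVOL1 and SPDEF coloured). Peaks of like height differ in fold: for H3K4me1 the ELF3 peaks of 216 and 220 fragments have folds of 33.3 and 14.0, and the SPDEF peak of 215 a fold of 11.9.

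Super-enhancers, long clusters of H3K27ac peaks, were what the study addressed. Leaving out H3K27ac peaks that lay entirely inside 2.5 kb of a protein-coding gene end, the rest were joined across gaps up to the customary stitching distance, and the 25235 regions were ranked by the sum over their peaks of the authors' fold times peak length. The point where the ranked curve reached the slope of its diagonal put 1326 regions above the limit, called super-enhancer-like here. Within 50 kb of such a region lay 2 of the 9 members, GRHL2 and ELF3, and 13.9% of all genes. The GRHL2 region, rank 472, lay inside the gene from 101600296 to 101635992 with 6 peaks. The ELF3 region, rank 63, ran from 202034572 to 202057390, past the gene, with 4 peaks. The EHF cluster of 8 peaks ranked 1921 and was below the limit. It included the 3 peaks at the EHF starts, because those starts lie over 2.5 kb inside the gene's annotated end. Ranked with fragments in place of fold the EHF cluster was called, at rank 618 of 852. The ELF3 region then stayed called at rank 370, and the GRHL2 region was not called, at rank 1608. With a shorter joining distance of 5 kb all members but ELF5 lay near a called region, 8 of 9, but then 29.3% of all genes did.

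The factors' relatives and the genes of the epithelial programme had the following marks at their starts. For reference, 62.6% of all genes had H3K27ac and 65.4% H3K4me1 at a start. Of 7 other members of the same families, 4 had both marks, near those shares, ELF1 with 137 H3K27ac fragments, UBP1 with 123, ELF2 with 67 and ELF4 with 17. TFCP2, TFCP2L1 and OVOL3 had neither. Of 24 epithelial genes described as targets or partners of these factors, 22 had H3K27ac (91.7%) and 23 H3K4me1 (95.8%). CLDN4, a claudin of tight junctions, had the highest H3K27ac, 227 (198 to 259), and PRSS8, a membrane serine protease, the highest H3K4me1, 177. CDH1, the gene of E-cadherin, had 132 and 93. KRT19 had neither mark and PKP3 lacked H3K27ac. Of 10 transcription factors that oppose the epithelial state, 5 had H3K27ac and 6 H3K4me1, near the shares of all genes. ZEB1, a known target of OVOL repression, had the highest H3K27ac, 49 (36.3 to 64.8), followed by SNAI1 with 31, SNAI3 with 29, TCF4 with 19 and SNAI2 with 12. SNAI2 had the highest H3K4me1, 78. ZEB2, TWIST1, TWIST2 and FOXC2 had neither mark and PRRX1 only H3K4me1, 17. Among genes with a peak the median was 96.5 H3K27ac and 61 H3K4me1 fragments for the epithelial list and 29 and 31 for the repressors, against 71 and 35 for all genes. Both lists were drawn up with earlier results of these data known, so their counts are a description.

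**Figure D5:**
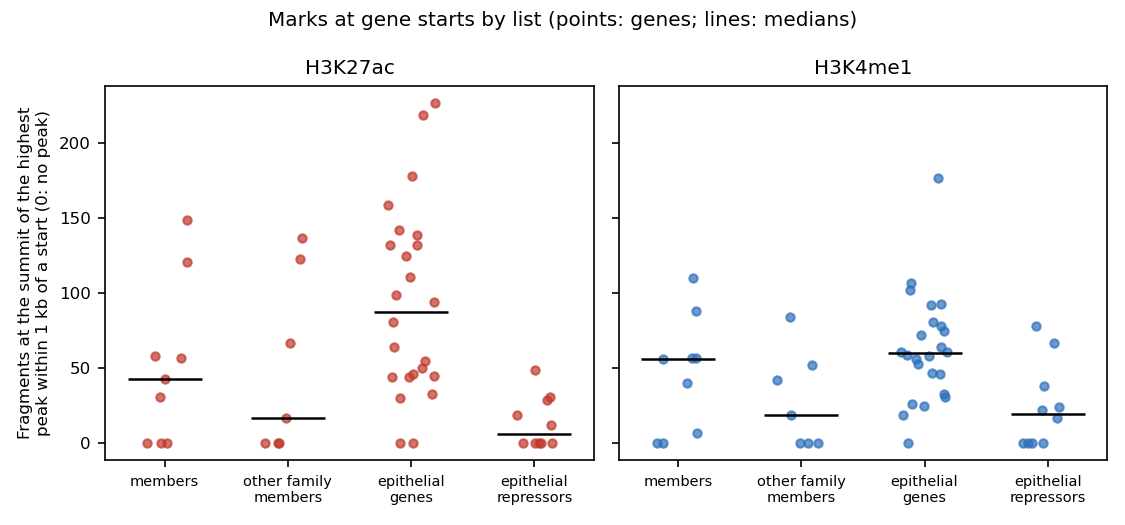
Fragments at the summit of the highest H3K27ac (left) and H3K4me1 (right) peak with its nearer edge within 1 kb of a start, for each gene of 4 lists; 0 stands for no peak and lines are medians. Epithelial genes reach 227 H3K27ac fragments (CLDN4), the 9 members 149 (GRHL2, summit 1.58 kb inside the gene) and the repressors of the epithelial state 49 (ZEB1).

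Genes with a pattern most like each member's were found from 4 values, the fragments of each mark at the start and the number of peaks of each mark in the window, as Euclidean distance on log2(1 + value). ELF3 was nearest to TRIM8 (distance 0.0935), which had 117 and 104 fragments and 12 and 17 peaks. EHF was nearest to RRBP1 (0.108) and SPDEF to ESYT3 (0.166). GRHL1 was nearest to PGM2L1 (0.207), GRHL2 to SERINC5 (0.282) and OVOL1 to USP2 (0.294). For GRHL2 and OVOL1 both ends of the gene counted as possible starts. The OVOL1 values used, 31 and 88 fragments, are at its start only if its higher-coordinate end is the start. Each likeness is over 2 libraries of 1 line and says nothing of shared function.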

How the data were processed

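CUT&Tag libraries for H3K4me1 and H3K27ac, 1 each, came from C4-2B EnzR cells. Per the submitters' processing notes the authors used BWA and MACS2 with hg38; versions, settings, duplicate removal and any control library are not given in the sources used here. The deposited peak lists hold a score, a fold enrichment (a ratio to local background), and −log10 p and −log10 q values at the summit, with q up to 0.0499 and 0.0488. Only chromosomes 1 to 22 and X were analysed, with 64784 of 64850 (H3K27ac) and 139511 of 139692 (H3K4me1) peaks. The fragments (or extended reads) k at a summit and the background λ were solved from the deposited fold, (k + 1)/(λ + 1), and the Poisson p; a whole k was found for 100% of peaks of both lists, within 0.001 in −log10 p or a relative 0.0001, with more than 1 solution for 1 of the 198 H3K4me1 member peaks. The recovery was tested on simulated data. Genes came from RefSeq (GRCh38.p14), starts from its promoter table where it had an entry (15813 of 19974 genes) and otherwise from both gene ends. Peaks were named where highest of their mark in a window or at a start, or highest H3K27ac over 2.5 kb from gene ends. List genes were named at the extremes or where 5 or fewer had or lacked a mark. Some listed markers and 1 searched motif are not reported here. CDH1 and the other pairs described were chosen after their values were seen. The members, lists and alternatives (window, peak cutoff, start distance, overlap, stitching, ranking) were chosen with earlier results of these data known. Python 3.11.15, numpy 2.4.6, pandas 2.3.3 and scipy 1.17.1 were used.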

Additional observations from a re-analysis of the deposited data

How the results depend on the processing

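Of 42 alternatives to the 7 counts and shares reported, 38 stayed within 1.5 times the main count or within the interval of the main share. On gene bodies alone the loci held 50 H3K27ac and 101 H3K4me1 peaks. With a peak required to cover the start base, 4 members had H3K4me1 at the start, where 48.1% of all genes did. With stitching over 5 kb, 8 members lay near a called region, where 29.3% of all genes did. Counts within limits can still change members. With gene-end peaks kept, ELF3, SPDEF and OVOL1 lay near a called region (25.1% of all genes) and GRHL2 did not. Within 2.5 kb OVOL2 also had H3K27ac near a start (7 of 9, against 66.6% of all genes). At that distance ELF5 also had H3K4me1 near its start (8 of 9, against 70.1% of all genes). No paired analysis was possible because each antibody has 1 library. With 1 library per mark, peaks missing from a list may lie below detection, and fragments per summit are the only depth known.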
